A study of Homo sapiens with 4 samples.

Results

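The 37 aminoacyl-tRNA synthetase genes described here were chosen by name alone, from the 20372 genes of the deposited table. They are the protein-coding genes whose symbol is 1 amino acid letter followed by ARS, with or without a final 2, together with EPRS, FARSA, and FARSB. No measured value entered the choice. Of the 37 genes, 18 encode the cytosolic enzymes, 17 encode the mitochondrial enzymes (a final 2 in the symbol), and GARS and KARS each encode the glycine and lysine enzymes of both compartments. All 37 had enough reads to be tested.

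Each aminoacyl-tRNA synthetase joins 1 kind of amino acid to its tRNA, the step that gives the genetic code its meaning, and every translating cell needs the whole set. The cytosolic enzymes serve the ribosomes that read nuclear messages, whereas the mitochondrial enzymes are made in the cytosol, imported, and used to translate the respiratory chain subunits encoded in mitochondrial DNA. Several cytosolic enzymes sit together in the multi-synthetase complex with the scaffold proteins AIMP1, AIMP2, and EEF1E1. The transcription factor ATF4, which responds to amino acid shortage, is known to raise several cytosolic synthetase genes, and WARS is known as an interferon-induced gene.

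RNA was sequenced from TPC1, an established papillary thyroid carcinoma line that carries the CCDC6-RET fusion, after exposure to BLU6864, a selective inhibitor of the RET kinase, for either 6 h or 24 h. Each time has 2 libraries. The study made this comparison to find what changes as the cells become refractory to RET inhibition. The labels give the dose as 100 µM and the methods give the same figure in nM, so the dose is uncertain. The words "re-analysis" stand in the titles of the 24 h libraries and not in those of 6 h, and 0 vehicle libraries were used here, so longer inhibition, longer culture, and that difference in handling cannot be told apart.

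Total counts were 23917056 and 26829072 at 6 h and 26486456 and 27457040 at 24 h, and 12876 genes were tested. The thyroid factor PAX8 was abundant in all 4 libraries, FOXE1 and TG were present at lower levels, with TG at 98 to 245 reads, and NKX2-1 and TSHR had no read in any library. Of the white blood cell markers PTPRC, CD3E, LYZ, and TYROBP, none had more than 5 reads in a library. Values below are normalized counts, raw counts scaled to the mean library size after the TMM adjustment of edgeR. The log2 of the fitted fold between the times is written log2FC, above 0 where 24 h was higher. Because these are shares of each library, they measure neither the amount of RNA per cell nor the number of cells. The labels do not say whether libraries of 1 time came from separate cultures, so P values measure only the spread between these libraries. That spread was estimated mostly from all genes together and not from each gene alone.

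Matches to a pair of short promoter motifs are shown first, and the other motifs searched are given further below. MARS2, CARS2, EARS2, IARS, and NARS, 5 of the 11 genes past the cutoffs described below, hold at least 1 of the pair. AARS2, also among the 11, had no promoter window and was not searched. No share over all promoters is given for the pair together. The CCAAT motif, also searched, was found in these same 5 genes, so this count does not single out the pair. RefSeq promoter windows (250 bases before to 50 bases after the start, GRCh38.p14) were matched for 30 of the 37 genes. The first motif is TGATGNAAN, the letters of the C/EBP-ATF response element to which ATF4 binds. It was found on either strand in 7 of these 30 windows (23.3%), against 2.53% of all 15843 protein-coding promoters. In 5 of the 7 the match read TGATGCAAC, and 6 of the 7 belong to cytosolic enzymes. The matches are printed below on the strand that holds them, with the motif in capitals and 10 bases on each side.
AARS, chr16:70289676-70289704, plus strand: ctaacttggcTGATGCAACtgcgagaaaa
CARS, chr11:3057408-3057436, plus strand: tcctagaatcTGATGCAACcgccgccccg
IARS, chr9:92293693-92293721, plus strand: cgcacggaggTGATGCAACgcgctgaaaa
MARS, chr12:57488053-57488081, minus strand: aatccctcgcTGATGCAACcggaaccggc
NARS, chr18:57621804-57621832, minus strand: ctacgctctcTGATGCAACgccggaatcg
TARS, chr5:33440956-33440984, minus strand: ctggaccagcTGATGCAATcgaaaggcgc
YARS2, chr12:32756076-32756104, minus strand: tccacactgcTGATGGAAAaattaagttt

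The second motif is the palindromic E-box CACGTG, the letters bound by MYC, USF, and TFE3 family proteins. It was found in 4 of the 30 windows (13.3%), against 8.88% of all promoters. These 4 genes, MARS2, CARS2, EARS2, and IARS, also had the largest fitted rises of the set, but IARS (0.63) differed from FARSA (0.62) by less than the standard error and lay below PARS2, FARSA, and LARS2 without the second 6 h library. Their matches are printed in the same way with 12 bases on each side.
MARS2, chr2:197705346-197705375, plus strand: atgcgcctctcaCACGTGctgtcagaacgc
CARS2, chr13:110706501-110706530, minus strand: tgctgggatgcaCACGTGcttcgctaacag
EARS2, chr16:23557348-23557377, minus strand: cagggagaagccCACGTGtgctattccatc
IARS, chr9:92293866-92293895, minus strand: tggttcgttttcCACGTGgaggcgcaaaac

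More synthetase genes were higher at 24 h than were lower, and both rises and falls occurred in each compartment. By the quasi-likelihood test of edgeR, with P adjusted after Benjamini and Hochberg over all genes tested, 19 of the 37 (51.4%) were higher and 7 (18.9%) were lower at an adjusted P under 0.05, and 11 did not pass. Of all genes tested, 33.0% were higher and 32.6% were lower by the same rule. The study's methods state a downward cutoff only, log2FC under -0.5 with P under 0.01, by DESeq2. Here it was applied in both directions to the edgeR fit, as log2FC beyond 0.5 in size with unadjusted P under 0.01. By these cutoffs 9 (24.3%) were higher and 2 (5.41%) were lower, against 17.4% and 17.7% of all genes. Both 24 h libraries lay above both 6 h libraries in 22 genes (59.5%) and below them in 8 (21.6%), where 41.0% and 40.8% of all genes did so. The shares that rose were above these backgrounds and the shares that fell were below them, which describes the list and was not tested. The median log2FC was 0.28, with a range from -0.74 to 1.06, beside 0.0029 for all genes tested. The size of the change was ordinary, since the median absolute log2FC was 0.36 in the synthetase genes and 0.37 in all genes.

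**Figure D1:**
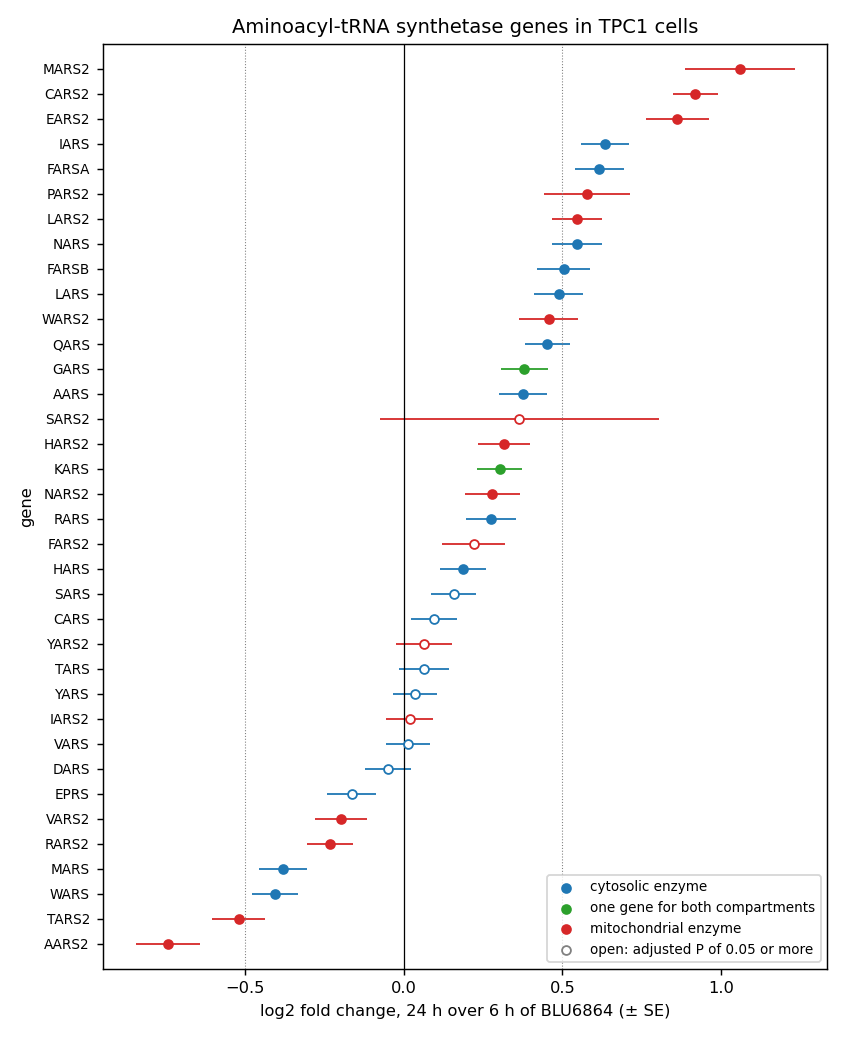
Log2FC of 36 synthetase genes at 24 h over 6 h of BLU6864 on the horizontal axis, with bars of ± 1 standard error and 1 gene per row, colored by compartment, where open points did not reach an adjusted P under 0.05 and dotted lines mark the cutoff of 0.5. The mitochondrial enzymes take both ends of the range, from -0.74 in AARS2 to 1.06 in MARS2.

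The 18 cytosolic genes had 9 members higher, 2 lower, and 7 not called, with a median of 0.17 on the log2FC scale and a range from -0.41 to 0.63. The 17 mitochondrial genes had 8 higher, 5 lower, and 4 not called, with a median of 0.28 and a range from -0.74 to 1.06. Without the second 6 h library these medians were 0.11 and 0.17. The cutoffs were passed by 4 cytosolic genes, all higher, and by 7 mitochondrial genes, of which 5 were higher and 2 were lower. Synthetases fall into 2 structural classes. Of 18 class I genes 9 were higher and 4 were lower, and of 18 class II genes 10 were higher and 3 were lower. EPRS, whose protein holds an enzyme of each class, was not counted in either.

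The largest fitted rise among the synthetases was that of MARS2, the mitochondrial methionine enzyme (ENSG00000247626, hg19 chr2:198570087-198573113). It was present at 65.9 and 67.2 normalized counts at 6 h and at 127 and 151 at 24 h. Both later libraries were thus well above both earlier ones, although the gene was among the scarcest of the set. The log2FC was 1.06 ± 0.172 (SE, n = 2 libraries per time, edgeR adjusted P = 6.18e-06), and MARS2 was the only synthetase gene past 1 in either direction in this fit. It exceeded CARS2, described next, by less than this standard error. Without the second 24 h library the log2FC was 0.93 in MARS2 and 0.95 in CARS2.

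CARS2, the mitochondrial cysteine enzyme (ENSG00000134905, hg19 chr13:111293759-111365950), had 1218 and 1263 counts at 6 h and 2388 and 2302 at 24 h. Both later libraries were far above the earlier ones, with a log2FC of 0.92 ± 0.0709 (SE) and the smallest P of the set (edgeR adjusted P = 1.03e-11). EARS2 charges mitochondrial glutamate tRNA (ENSG00000103356, hg19 chr16:23533335-23569052) and went from 366 and 313 counts to 633 and 598. Its log2FC was 0.86 ± 0.0986 (SE, edgeR adjusted P = 2.01e-08).

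The remaining mitochondrial genes past the upward cutoffs, PARS2 for proline and LARS2 for leucine, changed less. PARS2 had 129.5 and 161 counts at 6 h and 216 and 219.9 at 24 h (log2FC 0.58 ± 0.136 SE, edgeR adjusted P = 0.000581). LARS2 had 771 and 837 counts at 6 h and 1208 and 1141 at 24 h (0.55 ± 0.0795 SE, adjusted P = 1.16e-06). In both genes the 2 times did not overlap. WARS2, HARS2, and NARS2, the tryptophan, histidine, and asparagine enzymes of the mitochondrion, also rose, with log2FC values of 0.46, 0.32, and 0.28. SARS2, FARS2, YARS2, and IARS2 did not pass the test, and SARS2 had only between 8 and 15 raw reads in a library.

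AARS2 and TARS2 were the only synthetase genes to fall past the cutoffs, and both are mitochondrial. AARS2, the alanine enzyme (ENSG00000124608, hg19 chr6:44267391-44281063), had 497 and 502 counts at 6 h and 275 and 321 at 24 h. The times did not overlap, and the log2FC was -0.74 ± 0.102 (SE, edgeR adjusted P = 4.77e-07). TARS2, the threonine enzyme (ENSG00000143374, hg19 chr1:150459887-150480078), had 948 and 916 counts at 6 h and 677 and 622 at 24 h. Its log2FC was -0.52 ± 0.0832 (SE, edgeR adjusted P = 4.76e-06), and lay inside the cutoff, at -0.452 without the second 24 h library and at -0.497 without the first 6 h library. The mitochondrial arginine and valine enzymes RARS2 and VARS2 were also lower, with log2FC values of -0.23 and -0.20, and the call of VARS2 was lost under 4 alternatives (adjusted P from 0.0735 to 0.191).

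**Figure D2:**
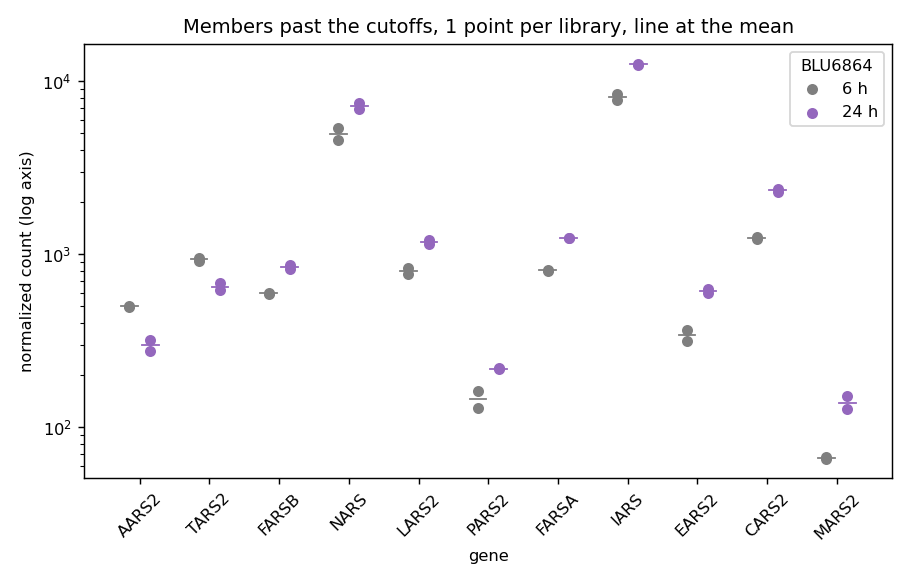
Normalized counts on a log axis of the 11 synthetase genes past the cutoffs, with 1 point per library, gray for 6 h and purple for 24 h, and a line at the mean of 2 libraries. The 2 times are separated in every gene, with AARS2 and TARS2 lower at 24 h and the other 9 higher.

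Among the cytosolic enzymes, IARS, FARSA, NARS, and FARSB passed the upward cutoffs and none passed the downward ones. IARS, the isoleucine enzyme and a subunit of the multi-synthetase complex (ENSG00000196305, hg19 chr9:94972489-95056038), had 8392 and 7757 counts at 6 h and 12613 and 12452 at 24 h. Its times were well apart, with a log2FC of 0.63 ± 0.0755 (SE, edgeR adjusted P = 4.10e-08). NARS, which charges asparagine tRNA (ENSG00000134440, hg19 chr18:55267888-55289445), had 5350.1 and 4554 counts at 6 h and 7522 and 6929 at 24 h, a log2FC of 0.55 ± 0.0797 (SE, edgeR adjusted P = 1.23e-06).

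FARSA and FARSB encode the alpha and beta chains of 1 enzyme, the cytosolic phenylalanine synthetase, and rose by similar amounts from different loci. FARSA (ENSG00000179115, hg19 chr19:13033293-13044851) had 804 and 809 counts at 6 h and 1232 and 1241 at 24 h, a log2FC of 0.62 ± 0.0764 (SE, edgeR adjusted P = 8.30e-08). FARSB (ENSG00000116120, hg19 chr2:223435255-223521056) had 590.5 and 599 counts at 6 h and 867 and 820.4 at 24 h, a log2FC of 0.50 ± 0.0841 (SE, edgeR adjusted P = 8.76e-06). In each chain the replicate libraries lay close together beside the distance between the times.

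LARS, QARS, AARS, RARS, and HARS, the cytosolic leucine, glutamine, alanine, arginine, and histidine enzymes, rose below the cutoffs, with log2FC values of 0.49, 0.45, 0.38, 0.28, and 0.19. The genes that serve both compartments were among the moderate risers. GARS had 3974 and 3538 counts at 6 h and 4934 and 4838 at 24 h (log2FC 0.38 ± 0.0737 SE, edgeR adjusted P = 6.47e-05). KARS had 2998 and 2871 counts at 6 h and 3751 and 3485 at 24 h (0.30 ± 0.0716 SE, adjusted P = 0.000622).

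WARS and MARS were the cytosolic genes that fell. WARS, the tryptophan enzyme (ENSG00000140105, hg19 chr14:100800125-100843142), had 2019.8 and 1978 counts at 6 h and 1428 and 1589 at 24 h, a log2FC of -0.41 ± 0.0728 (SE, edgeR adjusted P = 2.36e-05). MARS, the methionine enzyme (ENSG00000166986, hg19 chr12:57869228-57911352), had 2730.1 and 2676 counts at 6 h and 2224 and 1928 at 24 h, a log2FC of -0.38 ± 0.0749 (SE, edgeR adjusted P = 7.71e-05). Both 24 h libraries were below both 6 h libraries in each gene. SARS, CARS, TARS, YARS, VARS, DARS, and EPRS did not pass, with log2FC values between -0.16 in EPRS and 0.16 in SARS.

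The complex was not moved as a unit. Of its 8 enzyme genes, IARS, LARS, QARS, RARS, and KARS rose, MARS fell, and EPRS and DARS did not pass, with a median log2FC of 0.29. The scaffold genes were as uneven. AIMP2 had 188 and 219.7 counts at 6 h and 373 and 346 at 24 h, a log2FC of 0.81 ± 0.116 (SE, edgeR adjusted P = 7.97e-07). EEF1E1 rose by 0.27, and AIMP1, with a log2FC of 0.05, did not pass.

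The 2 enzymes for the same amino acid were set side by side. There were 18 such pairs over 17 amino acids, since FARSA and FARSB share FARS2 and EPRS stands beside both EARS2 and PARS2. In 4 pairs (22.2%) both genes passed the test in opposite directions, and in 3 pairs (16.7%), those of asparagine, leucine, and histidine, both rose. Over all possible pairs of tested genes, 21.5% were called in opposite directions and 21.5% in the same direction, so the count of opposite pairs was at the background and describes these pairs only. In the alanine and arginine pairs the cytosolic gene rose and the mitochondrial gene fell. RARS was not called without the first 24 h library or the second 6 h library, with log2FC values of 0.20 and 0.16. EPRS had -0.27 without the second 6 h library and was called lower there, beside rises in EARS2 and PARS2. The count of opposite pairs thus varied between these fits. In the methionine and tryptophan pairs the cytosolic gene fell and the mitochondrial gene rose.

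The widest gap was that of methionine, where the log2FC of MARS2 exceeded that of MARS by 1.44 ± 0.188 (SE combined over the 2 genes as if independent). Per length of transcript, MARS was 44 times as abundant as MARS2 at 6 h and 16.2 times at 24 h. The ratio of their raw counts was 41.5 and 39.8 at 6 h, then 17.6 and 12.8 at 24 h, so the times did not overlap. For tryptophan, WARS2 exceeded WARS by 0.86 ± 0.118, and the ratio of WARS to WARS2 counts went from 4.45 and 4.64 to 2.50 and 2.50.

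The alanine pair moved the other way. The log2FC of AARS2 minus that of AARS was -1.12 ± 0.127 (SE). AARS had 4303 and 3731 counts at 6 h and 5142 and 5286 at 24 h. Per length, AARS was 11.2 times as abundant as AARS2 at 6 h and 24.4 times at 24 h, and the count ratio rose from 8.67 and 7.44 to 18.7 and 16.5. For threonine, TARS had 6432 and 5848 counts at 6 h and 6859 and 5964 at 24 h, with overlapping times, while TARS2 fell. The difference of their log2FC values was -0.58 ± 0.114.

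In the glutamate, cysteine, and proline pairs the mitochondrial gene rose beside a cytosolic gene that did not pass the test. EARS2 exceeded EPRS, whose protein charges both glutamate and proline tRNAs, by 1.03 ± 0.125 on the log2 scale, and PARS2 exceeded it by 0.74 ± 0.157. EPRS itself had 7509 and 6481 counts at 6 h and 6344 and 6139 at 24 h, both later libraries being lower (log2FC -0.16 ± 0.0773 SE, edgeR adjusted P = 0.0645). CARS2 exceeded CARS by 0.82 ± 0.102. Per length, CARS was 1.69 times as abundant as CARS2 at 6 h and 0.954 times at 24 h. CARS had 3183 and 3053 counts at 6 h and 3506 and 3156 at 24 h.

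Of the partners that both rose, only those for asparagine differed by more than about the standard error of the difference. In the leucine pair, LARS had 2943 and 2532 counts at 6 h and 4006 and 3669.7 at 24 h, and its log2FC differed from that of LARS2 by less than the standard error of the difference (0.06 ± 0.111). In the asparagine pair, NARS2 had 582 and 579 counts at 6 h and 683 and 726 at 24 h, and it lagged NARS by -0.27 ± 0.117. For phenylalanine, FARS2 had 388 and 362 counts at 6 h and 463 and 409 at 24 h, above both earlier libraries but not past the test (log2FC 0.22 ± 0.101 SE, edgeR adjusted P = 0.0578).

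In the isoleucine pair the cytosolic IARS gained on IARS2, with a difference of -0.62 ± 0.106. IARS2 had 7544 and 7083 counts at 6 h and 7670.4 and 7146 at 24 h, so the times overlapped and the fold change was not distinguishable from 0. With 2 libraries per time, the exact permutation test of a single pair's ratio, two-sided, cannot give a P below 0.333, so the ratios are given as values.

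**Figure D3:**
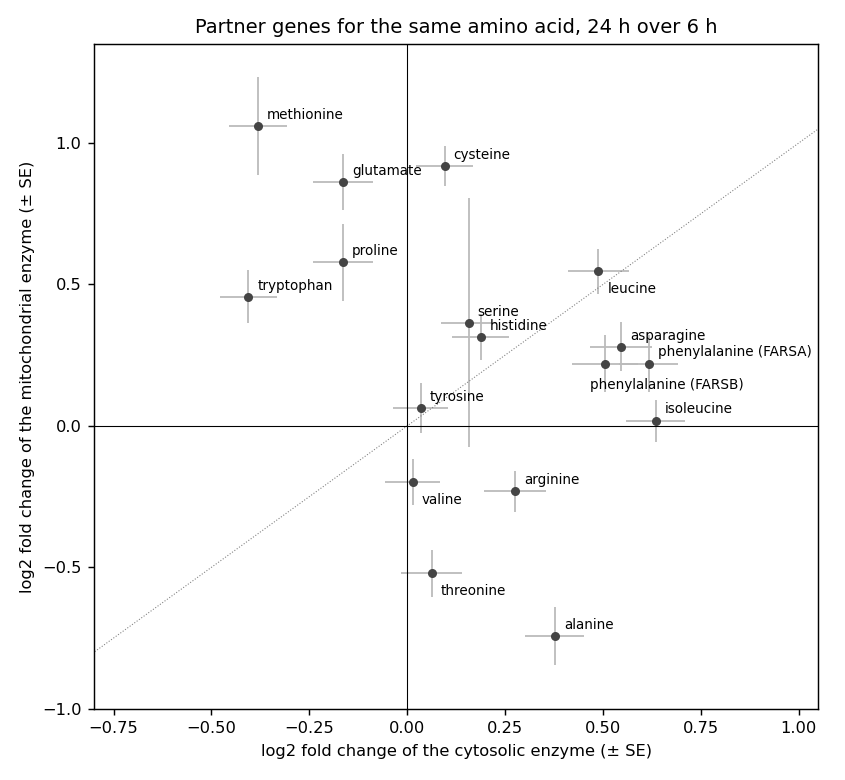
Log2FC, 24 h over 6 h, of the cytosolic gene on the horizontal axis and of its mitochondrial partner on the vertical axis, with 1 point for each of 17 pairs, bars of ± 1 standard error, and a dotted line of equal change. Methionine and tryptophan lie at the upper left and alanine at the lower right, while leucine lies on the line.

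Levels per length (RPKM, reads scaled to the length of the canonical transcript and to the library) were mostly higher for cytosolic than for mitochondrial genes, with IARS2, CARS2, and RARS2 among the cytosolic levels and FARSB among the mitochondrial ones. At 6 h the median level was 42.6 for the cytosolic and 8.84 for the mitochondrial genes, and at 24 h it was 45.2 and 9.39. The cytosolic partner was the more abundant in 16 of the 18 pairs at 6 h. The exceptions were IARS beside IARS2 and FARSB beside FARS2. Both rest on the canonical transcript lengths, 4483 bases in IARS against 3530 in IARS2, and 6761 in FARSB against 1679 in FARS2. By raw counts at 6 h the cytosolic gene was the higher, with ratios of 1.11 and 1.10 for IARS and 1.52 and 1.66 for FARSB.

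The order at 6 h was led by TARS at 87.9 ± 5.90 (SD, n = 2), followed by IARS2 at 79.2 ± 3.53, SARS at 75.2 ± 3.21, IARS at 68.9 ± 3.83, and NARS at 68.5 ± 7.79, where IARS and NARS differed by less than their spread and the other neighbors by more than either SD. At 24 h IARS led at 107 ± 0.969, above NARS at 100.0 ± 5.81 and TARS at 91.7 ± 9.06. CARS2 went from rank 18 to rank 12, with 25.8 ± 0.660 at 6 h and 48.8 ± 1.26 at 24 h. SARS2 was lowest at both times, at 0.216 and 0.274, and MARS2 came next at 0.840 and 1.75, so the synthetase with the largest fitted fold remained the second scarcest.

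**Figure D4:**
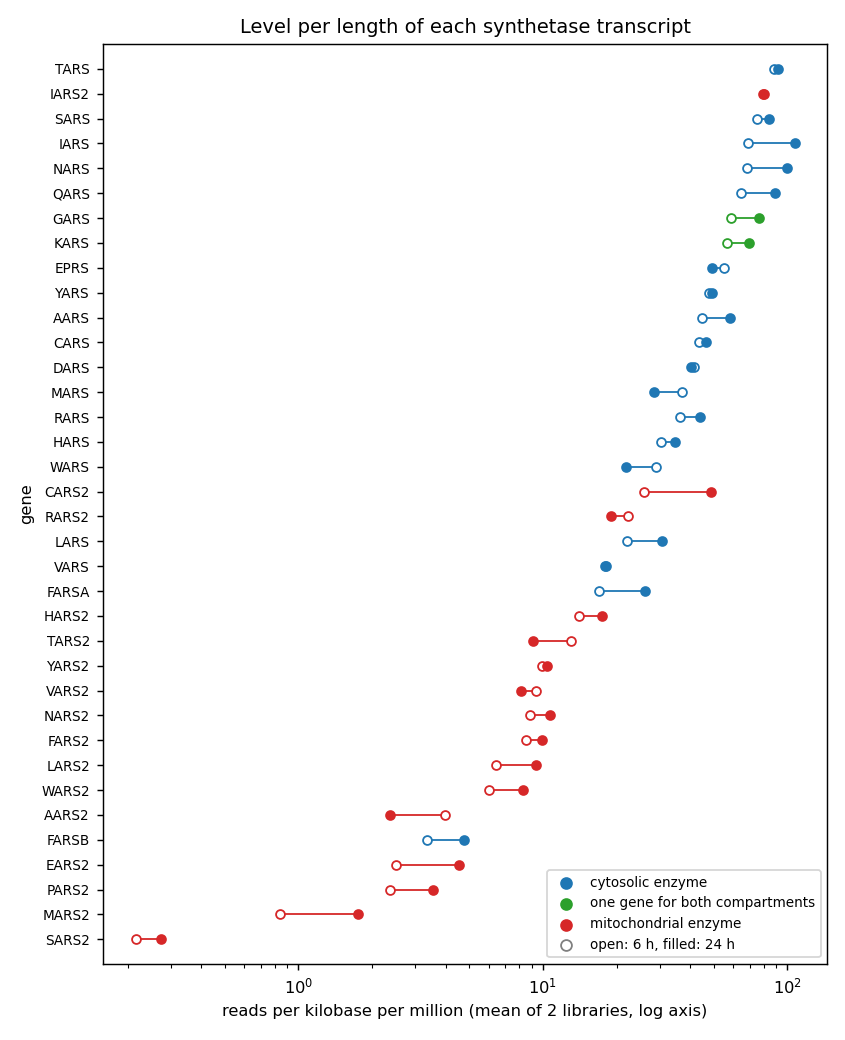
Level of 36 synthetase genes in RPKM, mean of 2 libraries, on a log axis, with open points for 6 h, filled points for 24 h, and genes ordered by their level at 6 h. Most cytosolic genes lie above most mitochondrial genes, with exceptions such as IARS2 at rank 2 and FARSB at rank 33, and IARS passes TARS to lead at 24 h.

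Summed over genes, the synthetases took 0.349% and 0.324% of the reads at 6 h and 0.390% and 0.370% at 24 h. The cytosolic genes, with GARS and KARS, summed to 2741 and 2510 CPM (TMM-scaled) at 6 h and 3173 and 3050 at 24 h, a ratio of 1.19. The mitochondrial genes summed to 703 and 677 CPM at 6 h and 757 and 732 at 24 h, a ratio of 1.08. A large part of this sum was IARS2, which did not pass the test. It held 6988 of 17035 and 7383 of 18448 raw mitochondrial synthetase reads at 6 h. At 24 h it held 7699 of 19885 and 7343 of 19684. The mitochondrial share of all synthetase reads was 20.4% and 21.2% at 6 h and 19.3% and 19.4% at 24 h, a difference of -1.51 percentage points. The times did not overlap in any of these sums, and the exact two-sided permutation P of each was 0.333, the smallest that 2 against 2 libraries can give.

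Read against the sequences printed above, the response element to which ATF4 binds did not mark a common direction. Of the 7 genes with the match, AARS, IARS, and NARS rose, MARS fell, and CARS, TARS, and YARS2 did not pass the test. MARS and NARS hold the same letters close to their start, at -5 to 3 and at 14 to 22 where 0 is the first transcribed base, on opposite strands relative to the gene, and MARS fell where NARS rose. Among all tested genes with a promoter window, the median log2FC was -0.03 in the 182 with the motif, and 32.4% of them were higher, against 33.0% of the 10064 genes without it.

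The E-box was held by 4 genes that all rose, as given above. In MARS2, CARS2, and EARS2 it lay next to the start, at -11 to -6, -3 to 2, and -15 to -10, and in IARS it lay at -186 to -181. Among all tested genes the median log2FC was 0.12 in the 1026 with an E-box, and 43.3% of them were higher, against -0.02 and 31.8% in the 9220 without it. The other rising genes with a window, such as FARSA and LARS2, did not hold these letters in it, and the comparison is a description of windows with no test.

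Other short motifs were frequent. The ETS motif CCGGAAG was found in 14 of the 30 windows (46.7%, against 14.2% of all promoters), CCAAT in 16 (53.3%, against 36.4%), and the NRF1 motif GCATGCGC in 2, MARS2 and YARS2 (6.67%, against 4.26%). HARS and HARS2 start head to head, with 84 bases between their first transcribed bases, and this stretch is printed because 1 short region precedes both a cytosolic gene and its mitochondrial partner. It holds the ETS letters at both ends, shown in capitals, once on each strand.
HARS and HARS2, chr5:140691371-140691454, plus strand: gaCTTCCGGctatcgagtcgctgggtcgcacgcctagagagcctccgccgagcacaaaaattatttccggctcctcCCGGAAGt

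Both genes of this pair rose. HARS had 1626 and 1485 counts at 6 h and 1817 and 1723 at 24 h (log2FC 0.19 ± 0.0727 SE, edgeR adjusted P = 0.0261). HARS2 had 963 and 857 counts at 6 h and 1188 and 1074 at 24 h (0.32 ± 0.0821 SE, adjusted P = 0.00152). Their models overlap by 599 bases in the table, and neither call held under every alternative.

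Genes that work with the synthetases were compared from lists written by hand. Of 13 tested genes for charging, proofreading, and delivery of tRNA outside the naming rule, 6 were higher and 2 were lower, beside 33.0% and 32.6% of all genes, with a median log2FC of 0.17. TARSL2, a second cytosolic threonine enzyme, had 66.9 and 51.8 counts at 6 h and 167 and 143 at 24 h, a log2FC of 1.39 ± 0.177 (SE, edgeR adjusted P = 1.32e-07), beside 0.06 in TARS and -0.52 in TARS2. The only fallers of the list were PSTK and SEPSECS, which act in turn to turn serine into selenocysteine on its tRNA. PSTK had 202 and 175 counts at 6 h and 113 and 104 at 24 h (log2FC -0.79 ± 0.146 SE, adjusted P = 3.33e-05). SEPSECS had 681 and 628 counts at 6 h and 379 and 428 at 24 h (-0.70 ± 0.0946 SE, adjusted P = 3.84e-07). SECISBP2, which reads the selenocysteine signal in messages, was by contrast higher, with a log2FC of 0.51.

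None of the 37 genes encodes a mitochondrial glutamine enzyme, and that tRNA is known to be charged by amidation of the product of EARS2. Of the amidotransferase subunit genes, QRSL1 rose with a log2FC of 0.41, and PET112 and GATC had 0.16 and 0.14 and did not pass. Of 13 genes for mitochondrial DNA copying and expression, 6 were higher and 3 were lower, beside 33.0% and 32.6% of all genes, with a median of 0.02. C10orf2, the mitochondrial DNA helicase, rose most, from 145 and 142 counts to 544 and 515 (log2FC 1.88 ± 0.112 SE, edgeR adjusted P = 4.09e-14). GFM1 and GFM2, the elongation and recycling factors of mitochondrial translation, moved apart, with log2FC values of 0.53 and -0.76.

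The ATF4-linked genes of amino acid synthesis, transport, and stress were next. Of 30 tested, 13 were higher and 10 were lower, beside 33.0% and 32.6% of all genes, with a median log2FC of -0.03. ASNS, the asparagine synthetase and a classic ATF4 target, had 731 and 693 counts at 6 h and 288 and 278 at 24 h (-1.33 ± 0.0950 SE, edgeR adjusted P = 2.15e-12), while NARS, which uses its product, rose. The other synthesis genes past the cutoffs went both ways. PSAT1, CBS, PYCR1, and ALDH18A1 rose with log2FC values of 1.04, 0.86, 0.74, and 0.72, and MTHFD2, CTH, and PHGDH fell with -1.20, -1.10, and -0.74. The largest fall was that of the cystine carrier SLC7A11, with -1.66. The 2 chains of the large neutral amino acid carrier, SLC7A5 and SLC3A2, rose with log2FC values of 1.22 and 1.20, and STC2, a secreted stress protein, rose most, with 2.54. ATF4 itself was slightly lower, with -0.22 and adjusted P = 0.0121.

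The interferon-induced genes were set beside WARS. Of 10 tested, 7 were higher and 1 was lower, beside 33.0% and 32.6% of all genes, with a median log2FC of 0.84. OAS1 and ISG15 rose with log2FC values of 3.22 and 2.34, and GBP2 fell with -1.26, so WARS, at -0.41, changed in the direction of GBP2 and opposite to the 7 that rose.

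**Figure D5:**
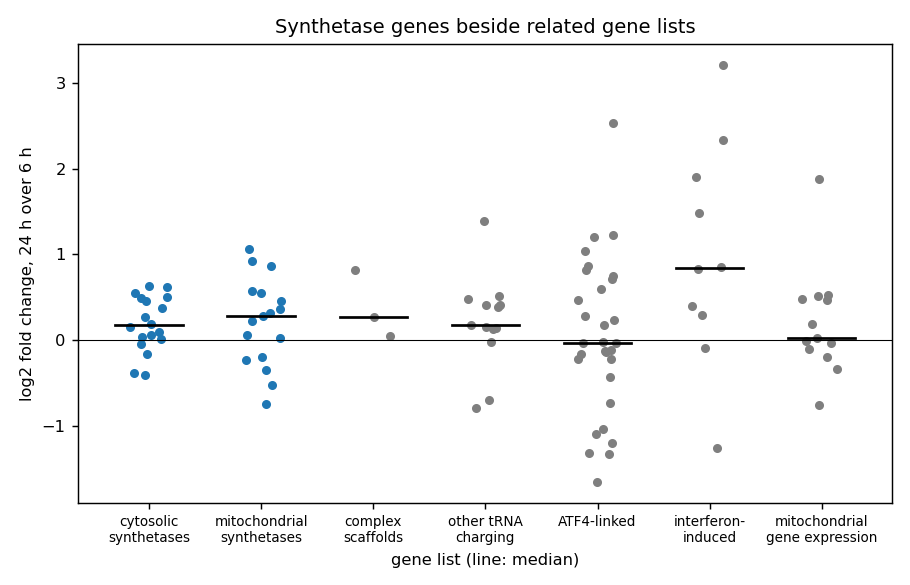
Log2FC, 24 h over 6 h, of each tested gene on the vertical axis, in blue for the cytosolic and mitochondrial synthetases and in gray for the 5 related lists, with a line at the median of each list. The synthetases lie between -0.74 and 1.06, the ATF4-linked genes between -1.66 and 2.54, and the interferon-induced genes between -1.26 and 3.22.

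Positions of 14 synthetase genes overlap another gene of the table, and the strand setting of the counting is not given in the sources used here. CARS2 rose where its neighbor ING1 had a log2FC of -0.83, and KARS rose where TERF2IP had -0.53. EARS2 rose where UBFD1, with 2493 to 3211 reads in a library, had 0.20, and HARS rose where WDR55 had 0.55. MARS, which fell, overlaps DDIT3, which had -0.22. SARS2, with few reads, overlaps MRPS12, which had 686 to 1227 reads in a library, and over 34452 bases CTC-360G5.8, which had none. MARS2 and AARS2 also lie wholly within the positions of another gene of the table. The overlap is 3027 bases in MARS2, with a gene that had 0 reads in every library. It is 13673 bases in AARS2, with a gene that had 0 to 2 reads in a library. The part of shared reads in these values was not tested, nor was their part in the levels, ranks, and ratios of MARS2 and AARS2.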

How the data were processed

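RNA of TPC1 cells exposed to BLU6864 for 6 h or 24 h was analyzed, with 2 libraries per time. Per the labels, the authors aligned reads with STAR 2.3 to hg19, and they deposited raw counts of reads per gene without normalization. The authors also deposited a normalized signal, the count divided by a DESeq2 size factor per library, which was used in no test. The deposited columns of the authors' own comparison (mean, log2 fold change, standard error, Wald score, P values) were not used. The counting program is not given in the sources used here. The labels and the methods differ on the version of STAR, read length, and pairing. The number of per-sample columns not used was 0.

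The raw counts entered edgeR (4.0.16, under R 4.3.3). After filterByExpr, 12876 genes with 99.97% of all reads remained, and these were scaled by TMM and tested together by quasi-likelihood, with time as the only term. Each standard error is the log2FC divided by the square root of F. The biological coefficient of variation was 0.0521. The procedure was tested on simulated data, in which 198 of 12755 genes changed by a log2FC of 1 in size. There edgeR recovered 92.9% of them, and 1.60% of its calls were false. Many more genes were called in the real data and most synthetase changes were smaller, so the simulation cannot show how well such calls hold. Levels per length used the Ensembl canonical transcript of GENCODE v44, matched by identifier for all 37 genes. Promoter windows came from RefSeq on GRCh38.p14, matched by current symbol. No window was used for the other 7 genes. Motifs were searched on both strands, and 0 matches of different motifs shared bases in the synthetase windows. Gene positions are given as deposited, on hg19, and were not mixed with those of GRCh38.

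The genes, lists, motifs, and cutoffs were chosen with earlier results of these data known. Every synthetase gene could be named, but the results of some single genes are not reported here. Those past the cutoffs, their partners for the same amino acid, GARS, and KARS were given by library. Some genes of other lists were named, if past the cutoffs, if the most changed of their list, or, for AIMP1, EEF1E1, QRSL1, PET112, GATC, and ATF4, for their role. Not all list genes past the cutoffs were named. Of the lists, AARSD1 and IDO1 were among those too low to test. Cell type markers also included those of epithelial cells (KRT8, KRT18, KRT19, EPCAM; 3 tested, 1 higher and 1 lower) and endothelial cells (CDH5, at most 1 read in a library). Tried as alternatives were a DESeq2 1.42.0 fit, scaling by library size or by upper quartile, no filter, a minimum of 10 counts per library, a block on the replicate number, and leaving out 1 library at a time. Python 3.11.15 and matplotlib 3.10.9 served for tables and plots.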

Additional observations from a re-analysis of the deposited data

How the results depend on the processing

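Of the 26 synthetase genes called, 22 stayed called in the same direction under all 10 alternatives, and 0 changed direction. All 11 past the cutoffs stayed called. Calls were lost for HARS, HARS2, RARS, and VARS2 under at least 1 alternative and gained for EPRS, FARS2, and SARS. The number past the downward cutoffs was 2, and 1 with upper quartile scaling; leaving out each library in turn gave 1 to 2. The number past the upward cutoffs was 9, 10 with upper quartile scaling, 8 with library size alone, and 7 to 10 on leaving out each library. PARS2, LARS2, NARS, and FARSB each lay inside the cutoff of 0.5 under an alternative, at their lowest 0.43, 0.49, 0.43, and 0.46, and stayed called. The median log2 fold change of the mitochondrial genes ranged from 0.17 to 0.28 on leaving out each library, the lowest without the second 6 h library, and that of the cytosolic genes from 0.11 to 0.23. With library size alone, the uncalled YARS, IARS2, and VARS changed sign to -0.0086, -0.024, and -0.029. On leaving out each library, uncalled genes changed sign too: TARS ranged from -0.034 to 0.17, IARS2 from -0.030 to 0.076, VARS from -0.010 to 0.052, DARS from -0.11 to 0.0083, and SARS2 from -0.030 to 0.83. These fits assume that the lone library varies like the other group. At least 10 counts in every library left SARS2 out.

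With the replicate block, 21 genes were higher and 8 lower. The numbers only name the libraries in the labels, and the correlation of deviations between same-numbered libraries was 0.0844, so the libraries were not treated as paired. DESeq2 gave 18 higher and 6 lower. The median of all genes tested was -0.04 with library size alone and 0.03 with upper quartile scaling. With 2 libraries per time, single-value tests over libraries could not pass a threshold, and the spread rests mostly on all genes together.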
